A study of Drosophila melanogaster with 10 samples.

Results

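Activity-regulated and immediate early genes are transcribed within a short time of a stimulus, before new protein has to be made. In neurons the routes that lead to them run through calcium, cAMP and ERK signaling, and in insect brains transcripts such as Hr38 and sr are used as marks of recent neuronal activity. The same class of genes also answers to stress signaling through the JNK kinase, whose nuclear effector AP-1 is a dimer of Fos and Jun proteins. Here 8 genes of this class were chosen by name: Hr38, sr, kay, Jra, Arc1, puc, cbt and Atf3. Of these 8, 7 were in the authors' deposited table of genes, which holds 9655 genes, and cbt was absent from it. The count tables hold 23882 features, and all 8 genes are among them.

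The study asked how loss of the serotonin transporter (SERT) alters transcription in Kenyon cells (KCs), the intrinsic neurons of the mushroom body, which receive serotonergic input. Female flies were homozygous for dSERT16 or for dSERT4. The allele dSERT16 was left by imprecise excision of a P-element at SerT, and dSERT4 carries a smaller deletion. The paper describes dSERT4 as a control matched for genetic background. It also reports that genes called between these alleles were concentrated on 2R, the arm of SerT. It proposes that at least some of these calls may come from disrupted DNA and not from serotonergic signaling. Of the members, Jra and Arc1 lie on 2R. The part of such DNA effects in the genotype differences given here was not tested. Flies of both genotypes carried Mef2(P247)-gal4 driving UAS-nls.GFP, which labels most KCs but α/β and γ cells more than α′/β′ cells. Central brains were pooled on the day of eclosion (day 0), the optic lobes were removed, and GFP-positive cells were sorted and sequenced in bulk by SMART-seq, with 5 samples per genotype. The sample titles give 1 sample of each genotype for each of 5 collection dates, and the replicate numbers 1 to 5 follow these dates, with replicates 2 and 3 on consecutive days and replicates 4 and 5 on consecutive days of the following week. The study set replicate 1 aside, so that the comparisons rest on the 4 pairs of replicates 2 to 5, and replicate 1 is given beside them. In bulk RNA a lower level in every cell and a smaller share of cells that hold the transcript cannot be told apart.

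Between 18446396 and 69997102 reads were counted on genes per sample, and each member other than cbt had at least 125 reads in every sample. All 12 KC marker genes tested were present, and their summed level was 17743 to 19379 CPM (counts scaled to library size and normalized by TMM) in dSERT16 and 17727 to 20775 CPM in dSERT4. SerT itself was barely detected, at a mean of 1.29 CPM over the 10 samples. It stood at 0.230 to 0.791 CPM in dSERT16, below the lowest dSERT4 sample at 0.920 CPM, although it did not pass the test across all genes (edgeR adjusted p = 0.519). Over 5 pairs the genotypes did not overlap in 2.7% of all genes. The sum of the 8 glial genes measured was 232 CPM in dSERT16 and 481 CPM in dSERT4 of replicate 1, and 957 to 1612 CPM in the samples of replicates 2 to 5, while the glial genes alrm and moody had 0 reads in every sample in the column used. Replicates 4 and 5 were the least deeply sequenced in both genotypes, with 18446396 and 22240073 reads on genes in dSERT16 and 19855011 and 21179329 reads in dSERT4.

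Levels of different genes were compared on the authors' TPM scale, which accounts for transcript length, over the 8 samples of the 4 pairs. Jra, the Jun protein of AP-1, was the most abundant at a mean of 92.2 TPM, higher than 75.8% of the genes in the deposited table. Its lowest sample, at 79.2 TPM, was above the highest sample of every other member. Arc1, an mRNA-binding capsid protein related to retrotransposon Gag, averaged 32.7 TPM, with samples between 8.58 and 67.7 TPM. Hr38, the nuclear receptor of the NR4A family, averaged 26.5 TPM (18.7 to 41.0), and puc, the phosphatase that switches off JNK, averaged 24.2 TPM (21.0 to 29.3). The transcription factor sr, related to mammalian EGR proteins, averaged 16.5 TPM (7.07 to 25.1). The samples of Arc1, Hr38, puc and sr overlapped, so that the order of these 4 genes was not beyond their spread. The Fos protein kay averaged 10.1 TPM (8.68 to 13.1), below every sample of Hr38 and puc but within the ranges of sr and Arc1. Atf3, a bZIP factor, was the lowest member at 1.44 TPM (0.849 to 1.92) and overlapped no other.

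Hr38 and sr lie on different chromosomes, Hr38 (FBgn0014859) on the reverse strand of 2L from 20683462 to 20714588 and sr (FBgn0003499) on the forward strand of 3R from 18090803 to 18135583 in the BDGP6 annotation. The level of Hr38 was 142, 152, 269 and 209 CPM in dSERT16 replicates 2 to 5, against 140, 163, 299 and 206 CPM in dSERT4 replicates 2 to 5. In both genotypes replicate 2 was the lowest, followed by replicates 3 and 5, and replicate 4 was the highest. The level of sr was 77.5, 108, 219 and 184 CPM in dSERT16 replicates 2 to 5, against 128, 210, 264 and 225 CPM in dSERT4 replicates 2 to 5. Here, too, the dates ran 2, 3, 5 and 4 from low to high in each genotype, and dSERT16 was below dSERT4 on each date. Both genotypes shared an order of the 4 dates in 530 of the 8690 genes tested (6.1%), and Hr38 and sr were the only members among them. Over all 5 dates the order was shared in 141 of 8726 genes (1.62%), and no member was among them. Replicate 1 was the lowest date of Hr38 in dSERT16 but not in dSERT4, and the highest date of sr in dSERT4 but not in dSERT16. Between the lowest and the highest of replicates 2 to 5, Hr38 differed 1.89-fold in dSERT16 and 2.14-fold in dSERT4. The gene sr differed 2.82-fold in dSERT16 and 2.06-fold in dSERT4.

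**Figure D1:**
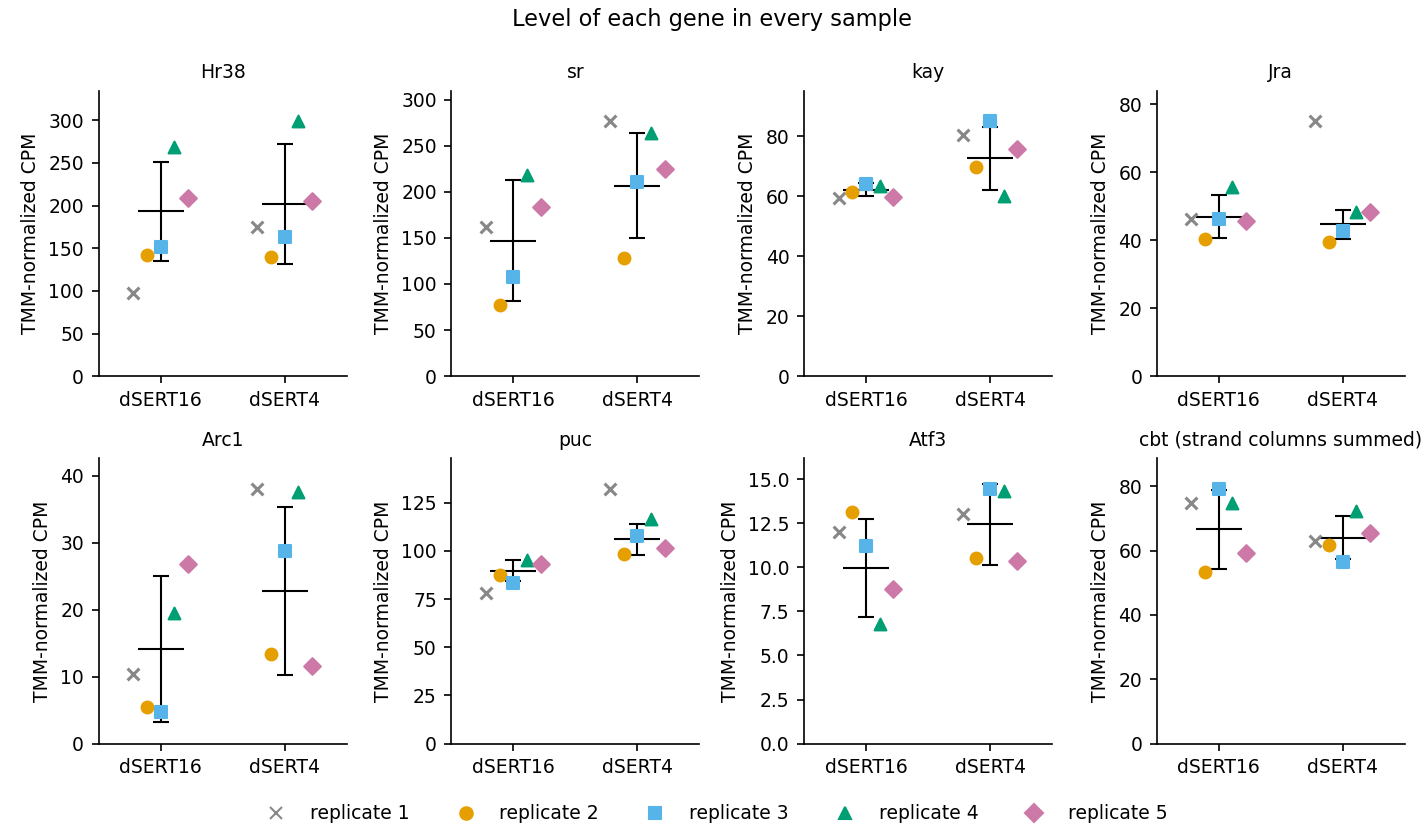
TMM-normalized CPM of each member in every sample, with dSERT16 left of dSERT4 and 1 symbol per collection date; the black bar and whiskers are the mean and SD of replicates 2 to 5 (n = 4), and cbt is drawn from the summed strand columns. Hr38 and sr are highest at replicate 4 and lowest at replicate 2 among replicates 2 to 5 of both genotypes, and only for puc do the genotypes not overlap.

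The collection dates were tested together by edgeR's quasi-likelihood F test with genotype kept in the model. Of the 8690 genes tested, 8 differed between the 4 dates at a Benjamini-Hochberg adjusted p under 0.05 (0.0921%), and of the 7 members tested this was the case for Hr38. Hr38 ranked 2 of all genes (F = 30.4, edgeR adjusted p = 0.0339), behind the chaperone gene Hsp83, and sr ranked 9 (F = 20.7, edgeR adjusted p = 0.0630). Of the 5 other members, Jra, Arc1, kay, puc and Atf3, none passed, with edgeR adjusted p-values between 0.717 and 0.885. The call for Hr38 rested on few samples, since it held in 4 of 8 fits that each left out 1 sample and was lost without dSERT4 replicate 4 or 5 and without dSERT16 replicate 4 or 5. With all 5 dates, sr passed (edgeR adjusted p = 0.0373) and Hr38 did not (edgeR adjusted p = 0.0727), among 26 of 8726 genes (0.298%). DESeq2's likelihood ratio test called both genes for date, with an adjusted p of 2.34e-12 for Hr38 and 3.69e-09 for sr, among 214 of 8868 genes (2.41%).

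**Figure D2:**
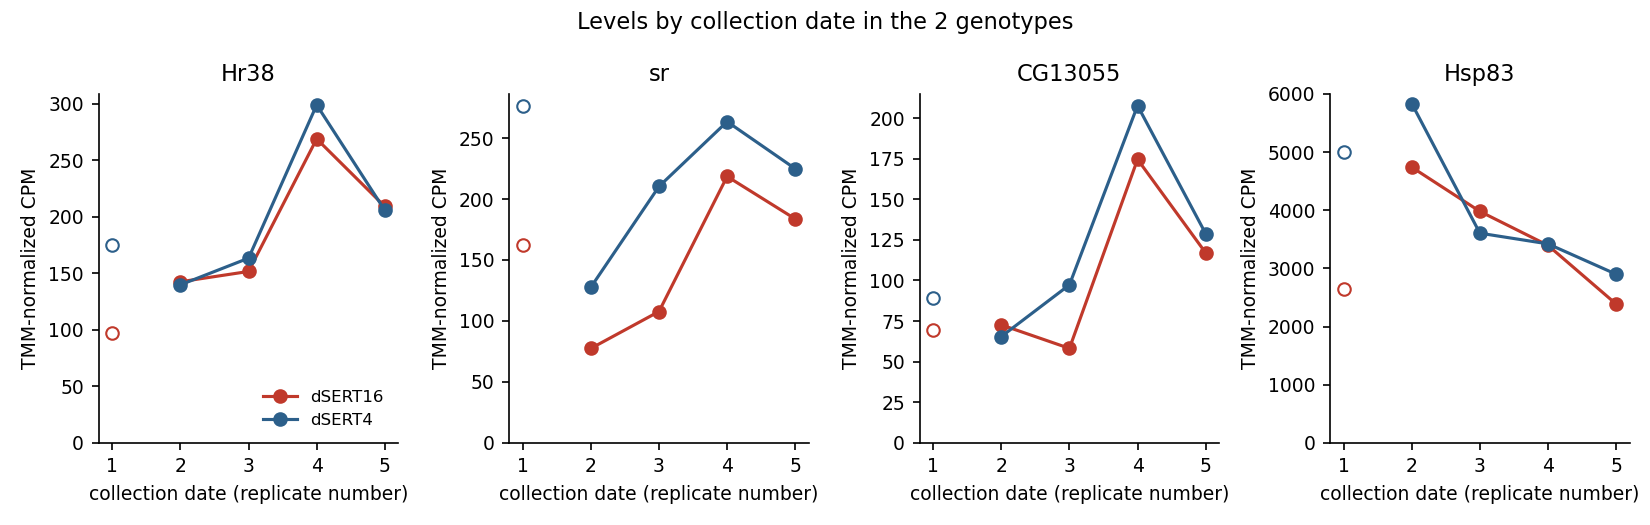
TMM-normalized CPM of Hr38, sr, CG13055 and Hsp83 by collection date, in dSERT16 (red) and dSERT4 (blue), with 1 point per sample; open points are replicate 1, which the study left out. Hr38, sr and CG13055 are highest at replicate 4 in dSERT16 (269, 219 and 175 CPM), while Hsp83 is highest at replicate 2 (4740 CPM in dSERT16 and 5834 CPM in dSERT4).

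Among the other genes that differed between dates was CG13055, the only gene to do so of the 6 tested on a list of 8 candidate activity-regulated genes. Its level was 72.7, 58.2, 175 and 117 CPM in dSERT16 replicates 2 to 5, against 65.4, 97.3, 208 and 129 CPM in dSERT4 replicates 2 to 5 (edgeR adjusted p = 0.0339 for date). This call, too, held in only 4 of 8 fits that each left out 1 sample. As for Hr38 and sr, replicate 4 was the highest and replicate 5 the next in both genotypes. The other 5, CG14186, CG17778, CG8910, CG13868 and CG14024, did not pass, with the lowest edgeR adjusted p at 0.503 for CG14186. FoxK and Obp44a, on none of the lists, also differed between dates, with replicate 4 the highest and replicate 5 the next in both genotypes. FoxK stood at 56.4, 64.2, 127 and 109 CPM in dSERT16 replicates 2 to 5, against 30.1, 57.9, 124 and 99.7 CPM in dSERT4. Obp44a stood at 130, 152, 303 and 156 CPM in dSERT16, against 174, 196, 311 and 232 CPM in dSERT4. The genes mahe, bumpel and CG10513, also called for date, did not have this order in both genotypes. Several measures of the samples moved with the dates as well. Hsp83 followed a different order, at 4740, 3979, 3395 and 2387 CPM in dSERT16 replicates 2 to 5 and 5834, 3605, 3421 and 2899 CPM in dSERT4 replicates 2 to 5. The 13 heat shock genes measured summed to 8225, 7784, 6099 and 5050 CPM in dSERT16 replicates 2 to 5 and 11217, 6480, 6813 and 5927 CPM in dSERT4 replicates 2 to 5. The glial sum was 1302, 1115, 1590 and 1003 CPM in dSERT16 replicates 2 to 5 and 1383, 1612, 1510 and 957 CPM in dSERT4 replicates 2 to 5. Within each genotype, replicates 4 and 5 had the highest Hr38 and sr and the fewest reads of replicates 2 to 5. Replicate 1 was outside this test of the dates. Its dSERT4 sample, the deepest library, had the highest sr of all 10 samples (277 CPM). Its dSERT16 sample, the next deepest, had the lowest Hr38 of all 10 samples (96.9 CPM). The part of depth, of heat shock genes and of glial RNA in the date differences was not tested.

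The genotypes were compared by edgeR's quasi-likelihood test on the counts of the 4 pairs. None of the 7 members tested passed an adjusted p under 0.05, beside 43 of all 8690 genes (0.495%). At an unadjusted p under 0.05 there was 1 member, puc, beside 609 of all genes (7.01%), and DESeq2's Wald test also called 0 members, beside 148 of 10015 genes (1.48%). Fold changes, given as log2 of dSERT16 over dSERT4, were below 0 for 6 of the 7 members, with a median of -0.24, beside 49.97% of all genes and a median of 0.00. The remaining member, cbt, could be fitted only from the summed strand columns, where it stood at 0.06 and Atf3 at -0.11. Fold changes share the same 8 samples, so the members are not independent of each other. Of the 13 heat shock genes tested, 10 were also below 0, with a median of -0.20, and 0 passed in the 4 pairs, while with the date as a block and 5 pairs Hsp70Bc passed and was higher in dSERT16 (edgeR adjusted p = 0.0435). Their summed level ranged from 4390 to 8225 CPM in dSERT16 and from 5927 to 11217 CPM in dSERT4 over all 10 samples, and it was lower in dSERT16 on 4 of the 5 dates. Their part in the genotype differences of the members was not tested.

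For Hr38 the genotypes averaged 193 ± 58.5 CPM in dSERT16 and 202 ± 70.2 CPM in dSERT4 (SD, n = 4 each). The log2 fold change was -0.07 ± 0.28 (SE, approximate 95% interval -0.62 to 0.49, edgeR adjusted p = 0.995). Within dates the difference of dSERT16 minus dSERT4 was 0.03, -0.11, -0.15 and 0.02 log2 CPM in replicates 2 to 5. With the date as a block the interval for Hr38 narrowed to -0.21 to 0.11. In replicate 1 the level was 96.9 CPM in dSERT16 and 175 CPM in dSERT4, a difference of -0.85, which lay apart from the other dates.

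For sr the genotypes averaged 147 ± 65.4 CPM in dSERT16 and 207 ± 57.2 CPM in dSERT4 (SD, n = 4 each), a log2 fold change of -0.49 ± 0.37 (SE; edgeR adjusted p = 0.879). Within dates the difference was -0.72, -0.96, -0.27 and -0.29 log2 CPM in replicates 2 to 5, and in replicate 1, at 162 CPM in dSERT16 and 277 CPM in dSERT4, it was -0.77. Thus sr was lower in dSERT16 on each of the 5 dates, as were 517 of 8726 genes (5.92%). With the date as a block in the 4 pairs, the log2 fold change of sr was -0.56 ± 0.12 (SE; edgeR adjusted p = 0.0718), and no member passed beside 54 of 8690 genes (0.621%). With the block and all 5 pairs it was -0.60 ± 0.11 (SE; edgeR adjusted p = 0.0209), so that sr passed as the only member beside 94 of 8726 genes (1.08%). Without the block, all 5 pairs gave sr an edgeR adjusted p of 0.719, and no member passed beside 66 of 8726 genes (0.756%). In the blocked fit of 5 pairs the call for sr was lost without the pair of replicate 1, 2 or 3 (edgeR adjusted p = 0.0718, 0.0715 and 0.0849) and held without that of replicate 4 or 5 (edgeR adjusted p = 0.0277 and 0.0425).

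**Figure D3:**
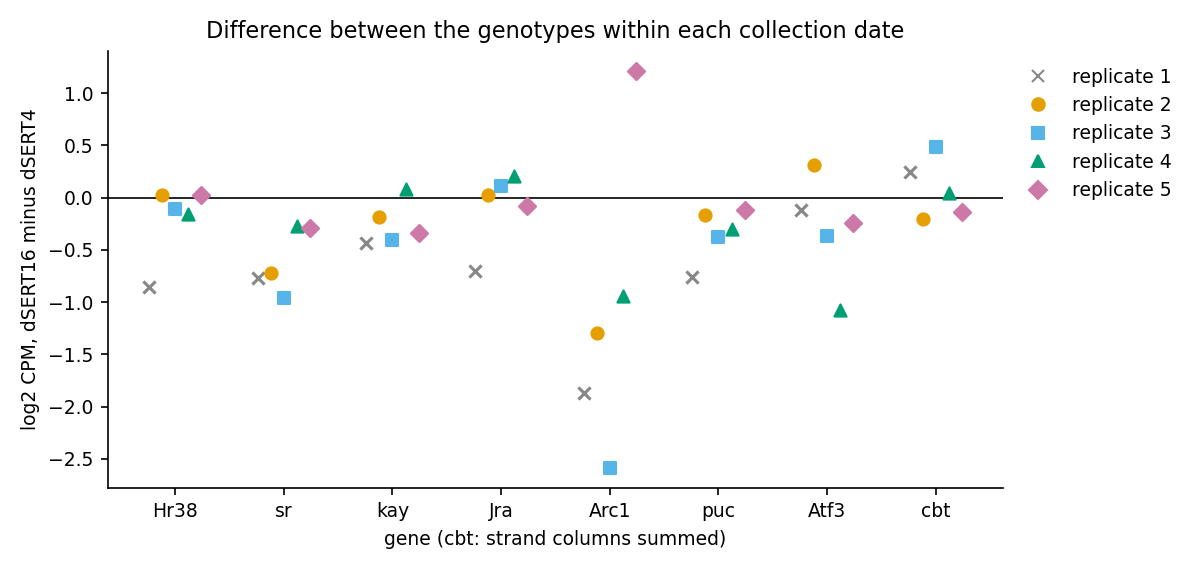
Difference in log2 CPM, dSERT16 minus dSERT4, between the samples of each collection date, with 1 symbol per date and cbt from the summed strand columns. All 5 dates lie below 0 for sr (-0.27 to -0.96) and puc (-0.12 to -0.76), while Arc1 spans -2.59 to 1.22.

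AP-1 is made of kay and Jra. The level of kay (FBgn0001297, forward strand of 3R from 29765995 to 29794113) was 61.5, 64.2, 63.6 and 59.8 CPM in dSERT16 replicates 2 to 5, against 69.7, 85.1, 60.2 and 75.8 CPM in dSERT4 replicates 2 to 5. The dSERT16 samples lay close together near the lower end of the dSERT4 range, with replicate 4 of dSERT4 among them. The gene kay had a log2 fold change of -0.22 ± 0.12 (SE; edgeR adjusted p = 0.783). The level of Jra (FBgn0001291, forward strand of 2R from 10096480 to 10098556) was 40.2, 46.2, 55.5 and 45.6 CPM in dSERT16 replicates 2 to 5, against 39.5, 42.8, 48.2 and 48.3 CPM in dSERT4 replicates 2 to 5. The groups overlapped throughout, and the log2 fold change of Jra was 0.07 ± 0.13 (SE; edgeR adjusted p = 0.983). In replicate 1 of dSERT4 Jra reached 75.0 CPM, above the other 9 samples, and including that pair turned the sign of the fold change (-0.12, edgeR adjusted p = 0.91).

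The JNK phosphatase gene puc (FBgn0243512, forward strand of 3R from 8105332 to 8122294), itself a transcriptional target of AP-1 in flies, stood at 87.4, 83.1, 95.1 and 93.3 CPM in dSERT16 replicates 2 to 5, against 98.3, 108, 117 and 101 CPM in dSERT4 replicates 2 to 5. The highest dSERT16 sample lay below the lowest dSERT4 sample. In replicate 1 the levels were 78.3 CPM in dSERT16 and 132 CPM in dSERT4, so that the genotypes did not overlap over 5 pairs either. The genotypes did not overlap in 4.87% of all genes in the 4 pairs and in 2.7% in the 5 pairs, and puc was the only member in either case. The means were 89.7 ± 5.49 CPM in dSERT16 and 106 ± 8.12 CPM in dSERT4 (SD, n = 4 each). Across all genes tested, edgeR gave puc a log2 fold change of -0.24 ± 0.10 (SE; edgeR adjusted p = 0.614, edgeR unadjusted p = 0.0277). With all 5 pairs it was -0.35 (edgeR adjusted p = 0.198), and with the block -0.34 (edgeR adjusted p = 0.189). Of the 10 genes tested upstream of or beside puc in the JNK pathway, 0 passed in either direction, with a median log2 fold change of -0.04 and 7 below 0. Among them the JNK gene bsk had 0.00 (edgeR adjusted p = 0.998) and the JNK kinase gene Mkk4 had 0.02 (edgeR adjusted p = 0.995).

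**Figure D4:**
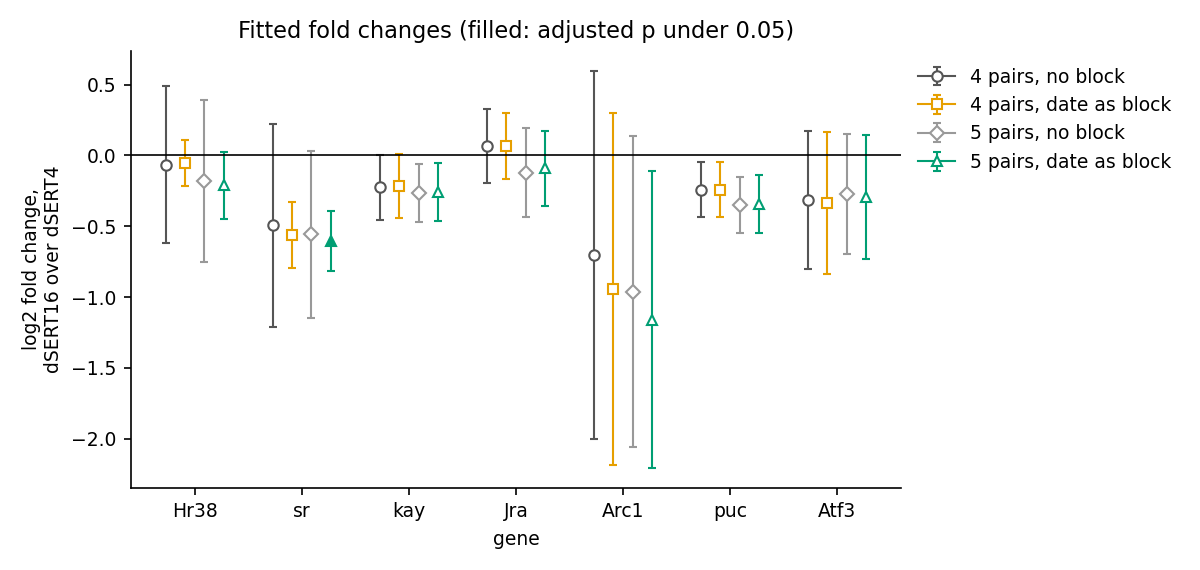
Log2 fold change of dSERT16 over dSERT4 for the 7 members tested, from edgeR fits of 4 or 5 pairs with and without the collection date as a block; bars are 95% confidence intervals and filled symbols have an adjusted p under 0.05. The block shortens the intervals of Hr38 and sr, and the only filled symbol is sr with the block and 5 pairs (-0.60).

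Arc1 (FBgn0033926, reverse strand of 2R from 14357927 to 14360297) was the most variable member. It stood at 5.43, 4.74, 19.5 and 26.8 CPM in dSERT16 replicates 2 to 5, against 13.4, 28.8, 37.6 and 11.5 CPM in dSERT4 replicates 2 to 5. Replicate 1 had 10.4 CPM in dSERT16 and 38.1 CPM in dSERT4. Arc1 was lower in dSERT16 on 4 of 5 dates, with within-date differences of -1.87, -1.30, -2.59 and -0.94 log2 CPM in replicates 1 to 4, and higher on the last, with 1.22 in replicate 5. The log2 fold change of the 4 pairs was -0.70 ± 0.66 (SE; edgeR adjusted p = 0.915). The blocked fit of all 5 pairs gave -1.16 ± 0.53 (SE; edgeR adjusted p = 0.504). Without replicate 5, the date of opposite sign, it gave -1.68 ± 0.26 (SE; edgeR adjusted p = 0.0313), beside 34 of 9330 genes that passed (0.364%). This fit was added after seeing the data. Without replicate 1, 2, 3 or 4, Arc1 did not pass (edgeR adjusted p = 0.752, 0.654, 0.661 and 0.577). The SD over dates was 1.26 log2 CPM in dSERT16 and 0.83 in dSERT4, and the pooled SD of 1.07 was larger than in 88.4% of all genes tested.

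Atf3 (FBgn0028550, reverse strand of X from 1242740 to 1275284) was the least abundant member in TPM. It stood at 13.2, 11.2, 6.78 and 8.75 CPM in dSERT16 replicates 2 to 5 and 10.6, 14.5, 14.3 and 10.4 CPM in dSERT4 replicates 2 to 5. The groups overlapped, and the log2 fold change was -0.31 ± 0.25 (SE; edgeR adjusted p = 0.88). For Atf3 the reads counted without regard to strand were 49.9% of the sum of the columns counted by strand, against 96.8% to 100% for the other 6 members of the deposited table. With the summed columns its log2 fold change was -0.11 ± 0.17 (SE; edgeR adjusted p = 0.982).

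The gene cbt (FBgn0043364, reverse strand of 2L from 476446 to 479688), which encodes a zinc finger transcription factor of the TIEG family, had 0 reads in the column used here in all 10 samples. It had between 1381 and 5202 reads per sample in the sum of the strand columns. The gene lies within ush, which runs on the forward strand from 476220 to 540560, and the 2 genes share 0 exonic bases. The same held elsewhere. Among protein-coding genes with at least 100 reads in the summed columns over all samples, 520 lay inside a gene of the opposite strand without sharing exonic bases with any gene, and 520 of these had 0 reads in the column without strand. Of 4566 such genes that overlap no gene, 5 had 0 reads (0.11%). A count of 0 in that column was therefore not a measurement of the level of cbt. From the summed columns cbt stood at 53.4, 79.3, 74.7 and 59.4 CPM in dSERT16 replicates 2 to 5, against 61.7, 56.5, 72.5 and 65.5 CPM in dSERT4 replicates 2 to 5. The groups overlapped, and the log2 fold change was 0.06 ± 0.14 (SE; edgeR adjusted p = 0.989). Since the libraries carry no strand information, reads of cbt and of ush within this stretch cannot be told apart. Without regard to strand ush had 121 to 681 reads per sample, against 1526 to 5926 in the summed columns.

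The spread between dates was then set against the difference between genotypes for each member, on log2 CPM of the 4 pairs. The absolute genotype difference divided by the pooled SD over dates was 0.12 for Hr38, 0.38 for Jra, 0.84 for Arc1, 0.96 for sr, 0.98 for Atf3, 1.40 for kay and 2.41 for puc. With 1 sample per date and genotype, this SD also holds spread that does not go with date. It takes no account of the pairing. For 5 of the 7 members the genotypes differed by less than 1 such SD. The median over the members was 0.96, beside 0.55 over all genes tested. With all 5 pairs this was so for 3 members, Hr38, Jra and Atf3, since sr and Arc1 then stood at 1.13, and the median over the members was 1.13, beside 0.52 over all genes. Of the sum of squares, the dates took 98.5% in Hr38, 82.9% in Jra and 69.9% in sr, but 36.7% in Arc1, 30.2% in kay, 25.0% in Atf3 and 22.3% in puc, beside a median of 45.8% over all genes. The genotype took 65.9% in puc, 39.4% in kay, 24.2% in Atf3, 23.6% in sr, 19.2% in Arc1, 4.66% in Jra and 0.45% in Hr38, beside a median of 9.08% over all genes. The share of the dates in Hr38 was higher than in 99.9% of all genes and that in sr higher than in 80.8%. With all 5 pairs the dates took 81.5% in Hr38, 57.0% in Jra, 65.4% in sr and 9.77% in puc, and the share in Hr38 was higher than in 92.3% of all genes. For Jra the share was high and the spread itself small, with an SD of 0.17 log2 CPM over dates, against 0.45 for Hr38 and 0.58 for sr.

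**Figure D5:**
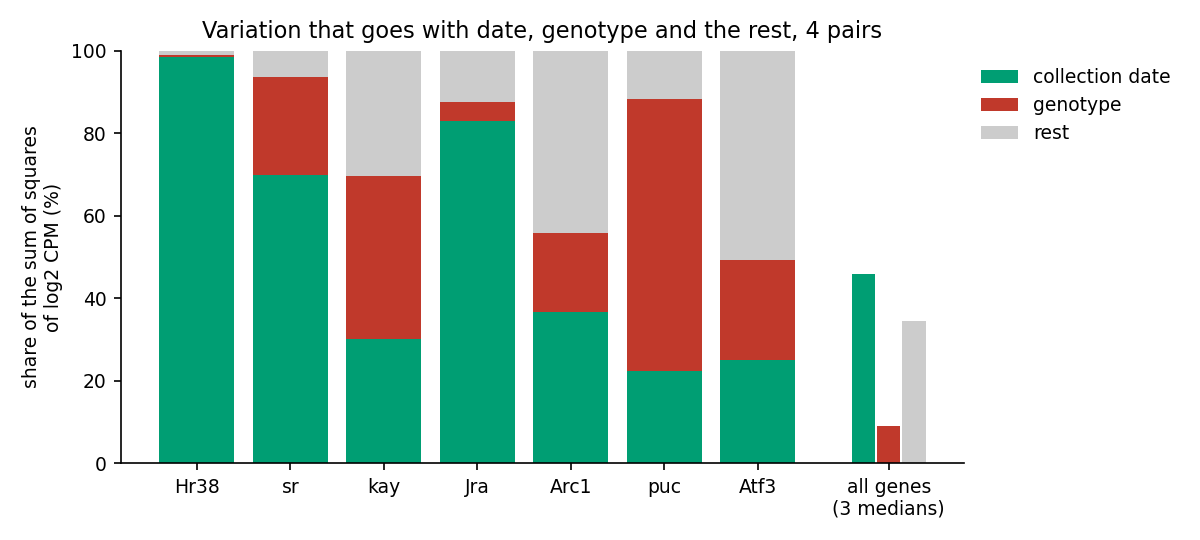
Share of the sum of squares of log2 CPM that goes with collection date, genotype and the rest, in the 8 samples of the 4 pairs, stacked for each member; the last 3 bars are the medians of each share over all 8690 genes and do not stack. The dates take 98.5% in Hr38 and the genotype takes 65.9% in puc.

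Other genes of the routes to these transcripts gave no calls between the genotypes. Of 14 genes of the calcium, cAMP, ERK and SRF routes, 0 passed, with a median log2 fold change of -0.11 and 10 below 0. The most abundant were CaMKII, the calcium- and calmodulin-dependent kinase (-0.08, edgeR adjusted p = 0.967), and Mkp3, an ERK phosphatase (-0.15, edgeR adjusted p = 0.836). The lowest adjusted p of this list was that of CrebA, a bZIP factor of secretory pathway genes in flies, which is named here after its values were seen. CrebA stood at 11.8, 10.6, 5.33, 7.97 and 6.40 CPM in dSERT16 replicates 1 to 5, against 17.9, 16.8, 19.9, 12.0 and 14.6 CPM in dSERT4 replicates 1 to 5. The genotypes did not overlap, as in 236 of 8726 genes (2.7%) over 5 pairs. The difference did not pass the test in the 4 pairs (-1.07 ± 0.26, SE; edgeR adjusted p = 0.101) or with the block and 5 pairs (-0.99, edgeR adjusted p = 0.0864). Of 9 other bZIP factors tested 0 passed, among them Xbp1, a factor of the unfolded protein response (-0.19, edgeR adjusted p = 0.734), and Pdp1, a factor of the circadian clock (-0.07, edgeR adjusted p = 0.983). Of 4 genes linked to JNK and AP-1 output 0 passed, with Mmp1, a secreted matrix metalloproteinase, at -1.01 ± 0.78 (SE; edgeR adjusted p = 0.886) and the filamin gene cher at 0.01 (edgeR adjusted p = 0.999). Of the 3 relatives of cbt and Arc1 tested 0 passed, with the Krüppel-like factors luna at -0.52 (edgeR adjusted p = 0.82) and dar1 at -0.42 (edgeR adjusted p = 0.943). None of these genes passed for date in the 4 pairs.

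The genes whose profiles over the 10 samples lay nearest to each member were listed by the root mean square difference of centred log2 CPM. For Hr38, whose own profile had a root mean square of 0.45 about its mean, they were the long noncoding RNA CR45758, the G protein gene Galphao and CG17839, each at 0.20 to 0.21. Galphao stood at 274, 260, 355 and 356 CPM in dSERT16 replicates 2 to 5 and 206, 275, 411 and 262 CPM in dSERT4 replicates 2 to 5. For sr they were Cdk8, a kinase of the Mediator complex, the antisense RNA CR45789 and sty, an inhibitor of receptor tyrosine kinase signaling, at 0.27 to 0.30 against 0.56 for sr itself. Hr38 and sr were not near neighbours over the 10 samples, since sr ranked 2192 by its distance of 0.48 to Hr38. For kay the nearest genes were Xbp1, Hsc70-3 and Gpo1 (0.09 each), for Jra Nlg3, Golgin245 and CG1951 (0.12 to 0.13), and for puc CG14669, mtgo and CG15765 (0.09 to 0.10). For Arc1 they were Marc, Lkr and Sdb (0.50 to 0.52), and for Atf3 the long noncoding RNA let7C, CG17684 and Uba4 (0.10 to 0.21). These distances are descriptions over 10 samples that share dates and genotypes.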

How the data were processed

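RNA of sorted KCs was measured in 10 samples, 5 of dSERT16 and 5 of dSERT4. Per the submitters' processing notes and the study's methods, the authors aligned SMART-seq reads to dm6 (BDGP6) with STAR, and they deposited counts of uniquely mapped reads per gene. The version and the annotation release were not given in the sources used here. The authors' deposited table adds TPM per sample of the 4 pairs they analysed. Its log2 fold changes and p-values, which the authors obtained with DESeq2, were not used. The counts without regard to strand were used, since between 48.3% and 49.9% of reads fell on the first strand. Reads without a feature (0.26% to 0.46%) and ambiguous reads (8.84% to 9.85%) stayed out of library sizes.

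Genes were kept by filterByExpr (minimum count 10, minimum total 15), normalized by TMM and tested with edgeR 4.0.16 in R 4.3.3 (glmQLFit, robust), with Benjamini-Hochberg adjustment over all genes at 0.05. The SE of an edgeR fold change was taken as its absolute value divided by the square root of F. Intervals are at the 95% level from the normal quantile. They are approximate, because they take no account of the few residual degrees of freedom, and can be narrower than the test implies. For Arc1 with the block and 5 pairs the interval, -2.21 to -0.11, excluded 0 at an edgeR unadjusted p of 0.0680. Log2 CPM used a prior count of 2, and CPM in the text use the TMM factors of all 10 samples. No label says whether samples of 1 genotype came from separate crosses, so p-values measure the spread between these samples. The libraries have no molecular identifiers.

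The dates in the titles and the parallel dissociation of both genotypes, stated in the methods, pair the samples. In replicates 2 to 5, deviations from the genotype means correlated within dates at 0.108, 0.0990, 0.0561 and 0.0835. The average between dates was -0.03. It is no separate contrast, because deviations sum to 0 over the dates of a genotype, which pulls it below 0. Single values between dates ran from -0.105 to 0.0783. The latter, of dSERT16 replicate 4 with dSERT4 replicate 5, was above the 0.0561 within the date of replicate 4. The date was also fitted as a block.

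The alternatives were DESeq2 1.42.0, its size factors, no filter, at least 10 reads in every sample, all 5 pairs, the sum of the strand columns, a threshold of 0.01 and leaving out each sample. The strand sum with 5 pairs or with the block, and leaving out each date under the block, were added after seeing the data. The scripts were tested on simulated data. The members and lists were chosen with earlier results of these data known. Genes named are all members, of each list the genes called or otherwise the 2 most abundant, and the 3 genes nearest to each member. Positions are those of the BDGP6 annotation of Ensembl. Promoter motifs were not analysed here.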

Additional observations from a re-analysis of the deposited data

How the results depend on the processing

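Across the alternatives no member besides sr and Arc1 passed for genotype. The number of genes called for genotype, 43 in the 4 pairs, was 66 with all 5 pairs, 148 with DESeq2, 77 without a filter, 71 with the strand sum and 5 pairs and 19 at a threshold of 0.01, and it ranged from 18 to 40 when each sample was left out. With the replicate block, in which samples are paired by date, it was 54 in the 4 pairs, 94 in 5 pairs, 52 with the strand sum and 4 pairs, 106 with the strand sum and 5 pairs, and 28 to 69 when each date was left out of the 5 pairs. With the block and 5 pairs 1 member (sr) was called, beside 1.08% of all genes, and also with the strand sum, beside 1.02%. When each date was left out, 0 to 2 members were called. These were sr without replicate 4 (beside 44 of 9241 genes, 0.476%), and sr and Arc1 without replicate 5 (beside 34 of 9330 genes, 0.364%). In the other fits 0 members were called. In the fits of the 4 or 5 pairs, the block changed no other call of a member. No fit without the block left out the pair of replicate 5, so the part of the block in the Arc1 call was not tested.

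For date, 8 genes were called in the 4 pairs. With all 5 dates there were 26, without the genotype term 4, with DESeq2 214, without a filter 338, at 0.01 0, with the strand sum 0 (edgeR, beside 860 at an unadjusted p under 0.05) and with the strand sum and 5 dates 28. Leaving out each sample gave 0 to 40 genes and 0 to 2 members. The 2 members were called without dSERT4 replicate 3 (beside 40 of 8827 genes, 0.453%) or dSERT16 replicate 3 (beside 33 of 8835 genes, 0.374%). Hr38 and sr were called with DESeq2 (beside 214 of 8868 genes, 2.41%) and with at least 10 reads in every sample (beside 12 of 7206 genes, 0.167%). Without a filter Hr38, sr and Arc1 were called, beside 338 of 15464 genes (2.19%), against 0.0921% with the filter. No member was called with the strand sum (Hr38 at an edgeR adjusted p of 0.0615), with the strand sum and 5 dates, or at 0.01. The cause of these shifts was not tested.

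The sign of Hr38 changed when single samples were left out, with log2 fold changes from -0.26 to 0.19. That of Jra was -0.12 with 5 pairs and -0.090 with the replicate block and 5 pairs, and -0.12 and -0.090 with the strand sum in these fits. It was -0.015 without dSERT16 replicate 4, and under the block -0.12, -0.14, -0.16 and -0.093 without the pairs of replicates 2, 3, 4 and 5. Over the fits that left out a sample or a date it ranged from -0.16 to 0.14. The other members kept their sign in the fits run. Atf3 had 125 to 912 reads per sample and Arc1 142 to 2659, and Arc1 had fewer than Atf3 in dSERT16 replicates 1 to 3.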
